A study of Mus musculus with 4 samples.

Results

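The 50 DNA replication genes described here were chosen by name from a list of functions, by a rule that uses no measured value although earlier results of these data were known, from the 46078 genes in the count tables, and each symbol matched 1 Ensembl identifier. By role, 15 of them license origins, 8 fire them, 20 work at the fork, 4 supply nucleotides, and 3 assemble chromatin or supply histones. They were measured by Smart-seq2, which sequences the whole length of transcripts from single cells, in wild-type mouse embryonic stem (ES) cells. All cells had been grown in 2i, which in the methods of the study is N2B27 with inhibitors of MEK and GSK3 and leukaemia inhibitory factor (LIF) and keeps ES cells naive, and were then sorted either through a gate for small cells, set on forward and side scatter, or without a gate. After sorting they spent 6 h on laminin, either back in 2i or in N2B27 alone, which lacks the inhibitors and LIF and lets cells leave the naive state. The 4 groups, named by medium and gate, are 2i small and 2i ungated, and N2B27 small and N2B27 ungated. The small gate was set to take cells that had just left mitosis or were in G1. Each group is 1 sample of 24 cells, so no group has a replicate and no p-value is given. The intervals below cover counting error only, with reads taken as independent, and leave out the spread between cells. All 2i cells lay on 1 plate and lane and all N2B27 cells on another, and so the effects of medium, plate and lane cannot be told apart.

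Replication is prepared in G1, when the origin recognition complex (ORC), Cdc6 and Cdt1 load the ring of Mcm2 to Mcm7 onto DNA, a step that geminin (Gmnn) blocks from S phase onward. At the start of S phase the kinase Cdc7 with its partner Dbf4, together with Cdc45, Mcm10 and the GINS complex, turn loaded rings into active helicases, and polymerases, the sliding clamp Pcna and its loaders then copy the DNA. Many of these genes are E2F targets, switched on at the G1/S transition in somatic cells, whereas ES cells have a short G1 and are known for high and less strongly cycling levels of many of them.

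After filtering on counts, detected genes and mitochondrial share, 12 cells of 2i small, 22 of 2i ungated, 20 of N2B27 small and 21 of N2B27 ungated were kept, with 1364155 to 4844170 gene counts per cell. Cell cycle phases were assigned with the cyclone classifier after every marker pair that holds a replication gene was removed. Of the kept cells, 7 of 12 in 2i small and 6 of 20 in N2B27 small were called G1, against 0 of 22 in 2i ungated and 2 of 21 in N2B27 ungated. G2/M took 18 of 22 cells in 2i ungated and 15 of 21 in N2B27 ungated. In 2i small, 1 cell had 40.9% of its counts on ERCC spike-ins and a size factor of 0.133, and another had 15712 detected genes; the medians of the gene groups that rest on 2i small are therefore also given without these cells, and so are single genes that then change side or by over 1.5-fold. The 8 ES cell markers were measured in every group, with Zfp42 (Rex1), for example, at means of 2291 to 4082 normalized counts. The 6 primitive endoderm markers had counts in 1 of 12, 6 of 22, 6 of 20 and 5 of 21 cells of 2i small and ungated and N2B27 small and ungated, and their summed CPM (gene counts scaled to a common total per cell) had a median of 0 in every group and reached 214 in 1 cell of N2B27 ungated. Pdgfra was at 0 throughout, and Gata4 had the highest mean, 17.0 normalized counts in N2B27 ungated. The 6 trophoblast markers summed to medians of 20.5, 82.5, 75.6 and 144 CPM, with Tfap2c, which ES cells also express, as the highest in every group. Next, Krt7 reached a mean of 51.8 in N2B27 small, Gata3 36.4 in N2B27 ungated and Cdx2 24.3 in 2i small, and Elf5 was at 0. The part of these cells in the results was not tested. The 6 fibroblast markers and the 6 2-cell-like markers did not exceed a mean of 0.111.

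The promoters of the replication genes often carried E2F sequences, and the licensing genes carried them most often. RefSeq promoters on GRCm38.p6, from 250 bases before to 50 bases after the start, were at hand for 42 of the 50 genes. An E2F motif, searched as TTTGGCGC, TTTCCCGC, TTTCGCGC or TTTGCCGC on both strands, occurred in 15 of the 42 genes (35.7%) against 2.60% of 27025 genes with a promoter. By role it occurred in 8 of 13 licensing genes, 1 of 5 origin firing genes, 6 of 17 fork genes, 0 of 4 nucleotide supply genes and 0 of 3 genes of chromatin assembly and histone supply. The cell cycle homology element TTTGAA, known from promoters of G2/M genes, occurred in 7 of the 42 genes (16.7%) against 20.2% of all genes. The CCAAT box, searched as CCAAT, occurred in 25 of the 42 (59.5%) against 41.1%. A match describes these letters only and was not tested as a site. The windows below show the matches in capitals in 120 bases before the start of 3 licensing genes that recur in the results, Mcm6, Mcm5 and Cdc6, and of the polymerase gene Pola1, each read along the strand of the gene.
Mcm6 (chr1:128359721-128359840, minus strand): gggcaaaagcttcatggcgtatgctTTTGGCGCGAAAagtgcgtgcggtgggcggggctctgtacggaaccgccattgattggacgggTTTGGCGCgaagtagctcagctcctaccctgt
Mcm5 (chr8:75109302-75109421, plus strand): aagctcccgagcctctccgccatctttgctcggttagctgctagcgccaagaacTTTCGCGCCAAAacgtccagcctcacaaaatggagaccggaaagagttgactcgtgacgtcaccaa
Cdc6 (chr11:98907957-98908076, plus strand): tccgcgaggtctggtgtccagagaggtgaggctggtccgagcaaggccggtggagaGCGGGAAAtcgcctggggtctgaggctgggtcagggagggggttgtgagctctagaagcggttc
Pola1 (chrX:93632230-93632349, minus strand): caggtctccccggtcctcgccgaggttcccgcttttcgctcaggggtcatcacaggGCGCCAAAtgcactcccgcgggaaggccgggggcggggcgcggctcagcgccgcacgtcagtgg
In Mcm6 and in Mcm5, matches on opposite strands overlap, so that 1 capital run holds both. Mcm6 has a further match nearer the start.

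**Figure D1:**
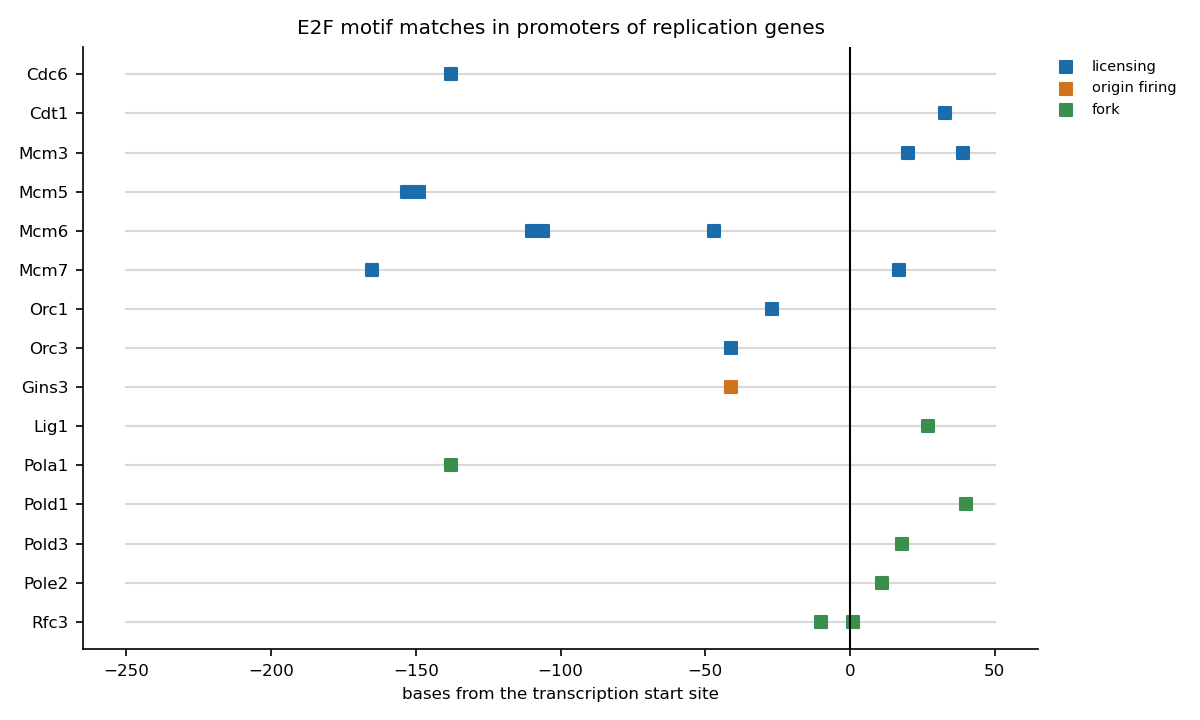
Position of each E2F motif match in the promoters of the 15 replication genes that have one; the horizontal axis gives the first base of the match in bases from the start site, each row is a gene, squares are matches and colours are roles. Of the 15 genes, 8 are licensing genes, and the matches lie from 165 bases before to 40 bases after the start.

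Per kilobase of exon, averaged over the 4 groups, Gmnn had the highest level at 1002 normalized counts, followed by Rrm2 at 403, Orc6 at 399 and Tyms at 338. The values of Gmnn, Orc6 and Tyms were raised by the 2i small cell with the spike-in share of 40.9%. The order in N2B27 ungated, which does not hold that cell, put Rrm2 (449), Gmnn (435) and Mcm5 (411) close together. The lowest were Pole at 6.15 and Fen1 at 2.14. Fen1, the flap endonuclease that trims Okazaki fragments, shares 84.2% of its exon bases with Gm10143 and Tmem258, and reads on such shared bases were not counted for either gene, which makes its count a lower limit. The same overlap covers 67.3% of Gins2, 52.5% of Chaf1a, 29.8% of Orc2, 15.1% of Rfc2, 12.7% of Rfc4, 12.6% of Mcm7, 10.8% of Orc1 and 10.7% of Rfc5, whose levels per kilobase are uncertain for the same reason.

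Between small and ungated cells in N2B27 the 50 genes lay close to the median of all genes, and the licensing genes lay below it. The median log2 ratio of mean normalized counts, with a pseudocount of 1, was −0.07 over the 50 genes and −0.10 over the 8704 genes with a mean of at least 20. A mean of 20 was reached by 49 of the 50, all but Fen1. Among the 50, 27 were lower and 23 higher in small cells. Past 2-fold, 4 of the 50 were lower, against 16.4% of all genes, and 2 were higher, against 12.8%. By these means replication genes passed 2-fold no more often than genes in general. With means of log2 values, given below, they were lower past 2-fold more often. They were also more abundant, with a median level of 415 against 98.1 for all genes tested, and the shares were not matched for level. The median was −0.51 for licensing genes, of which 12 of 15 were lower, and 0.34 for origin firing genes, 0.04 for fork genes, 0.02 for nucleotide supply and 0.05 for chromatin assembly and histone supply. The 4 lower genes were Chaf1a (−2.04), Orc2 (−1.56), Prim2 (−1.11) and Pold2 (−1.05), and the 2 higher ones were Pola1 (1.52) and Rfc1 (1.07). Pold2 and Rfc1 were named here after their values were seen. Size factors from scran split all genes into 14.7% lower and 18.4% higher past 2-fold. DESeq2's poscounts size factors, which use genes that some cells lack, shifted the median of all genes up by 0.48 and split them 9.72% to 26.3%. On that scale 16 of the 50 were lower and 34 higher, while 12 of the 15 licensing genes lay below the median of all genes on either scale. The first 2 of the lower genes are among those whose exons overlap another gene. The other 2, Prim2 and Pold2, fell short of 2-fold with scran and with poscounts. Among 20 genes of G2/M and mitosis, listed for comparison, 18 were lower in small cells, 6 of them past 2-fold, with a median of −0.85.

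In 2i, small cells had lower levels of most replication genes, except under poscounts size factors, where 24 of the 50 were lower and 26 higher. The medians of all roles but the fork lay below that of genes in general, and 31 of the 50 genes lay below it, against 29 with CPM or scran and 32 under poscounts. Over S cells alone, 3 small and 4 ungated, the 50 genes were not lower than genes in general, with a median 0.03 above that of all genes. However, 1 of these 3 small cells is the cell with 15712 detected genes, and a value without it is not given. With cells thinned to equal counts, another of the 3 was called G2/M and 1 of the 4 ungated cells G1. These few cells therefore cannot decide whether the direction differs in S. The median was −0.58 over the 50 genes and −0.31 over 8541 genes tested, and by the DESeq2 median of ratios 38 of the 50 were lower. Past 2-fold, 13 of the 50 were lower against 26.0% of all genes, and 4 were higher against 17.6%. With poscounts, which shifted the median of all genes by 0.83, all genes split into 12.3% lower and 37.6% higher, and the median of the 50 was 0.11. The fork median then lay at −0.03 relative to all genes, in place of 0.12. Without the 2 cells that stand apart, the medians were −0.43 and −0.23, 14 of the 50 were lower and 4 higher past 2-fold, and all genes gave 23.3% and 14.8%. By role, the median was −0.65 for licensing, −0.61 for origin firing, −0.19 for the fork, −0.86 for nucleotide supply and −0.97 for chromatin assembly and histone supply, whose 3 genes were all lower. Without the cells that stand apart these medians were −0.56, −0.53, −0.15, −0.75 and −0.91. Leaving them out turned 4 of the 50 genes to the other side of 0, which are Mcm2, Mcm5, Rpa2 (0.02) and Rpa3 (0.08), and moved Mcm2, Gmnn, Orc6 and Tyms by over 1.5-fold. The G2/M and mitosis genes had a median of −1.22, or −1.27 without those cells, with 14 of 20 lower past 2-fold.

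Ungated cells in the 2 media had nearly the same level of replication genes. The median log2 ratio of N2B27 over 2i was −0.03 over the 50 genes and −0.02 over 8682 genes tested. Past 2-fold, 1 of the 50 was lower, Gins2 at −1.15, against 9.42% of all genes, and 0 were higher, against 8.05%. The range over the 50 genes was −1.15 to 0.67. Under poscounts, with a shift of 0.45, all genes split into 2.96% lower and 16.8% higher, and 45 of the 50 were higher in N2B27, with a median of 0.42 over the 50 and 0.43 over all genes. Licensing genes had a median of 0.28, with 11 of 15 higher in N2B27, and fork genes a median of −0.13, with 14 of 20 lower, or 1 of 20 under poscounts. Relative to the median of all genes, 4 of 15 licensing genes lay below under both, and 13 of 20 fork genes, or 14 under poscounts. Medium and plate cannot be told apart in these values.

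In small cells most replication genes had higher means in N2B27 than in 2i, but they were higher past 2-fold about as often as genes in general. The median log2 ratio was 0.54 over the 50 genes, against 0.08 over 8455 genes tested, and 33 of the 50 were higher. Past 2-fold, 11 of the 50 were higher against 22.1% of all genes, and 6 were lower against 19.2%. Without the 2 cells that stand apart the medians were 0.44 and 0.05, with 11 higher and 4 lower, against 21.0% and 16.4% of all genes. The filter on cells was set per plate, at 4435 genes in 2i and 5316 in N2B27, and 2i small kept cells down to 4612. A limit shared by both plates was not tried. The 20 G2/M and mitosis genes were higher as well, with a median of 0.70, or 0.69 without those cells, and 7 higher and 2 lower past 2-fold. By role the median was highest for origin firing genes (0.87) and lowest for licensing genes (0.31), with 0.48 for the fork, 0.44 for nucleotide supply and 0.62 for chromatin assembly and histone supply. Without the cells that stand apart these were 0.81 for firing, 0.34 for licensing, 0.45, 0.35 and 0.49, and Orc6 (−2.11 to 0.34), Tyms (−2.61 to 0.26) and Prim1 (0.02 to −0.11) changed side, while Gmnn went from −2.40 to −0.40 and Mcm2 from −1.04 to −0.16. This comparison and the 2 between gates share the small samples, so their values are not independent of each other. Ranks within a role are given below by the median of ratios; of the 40 highest and lowest ranks over roles and comparisons, 23 were held by 1 gene also with CPM, scran, poscounts and without the cells that stand apart.

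**Figure D2:**
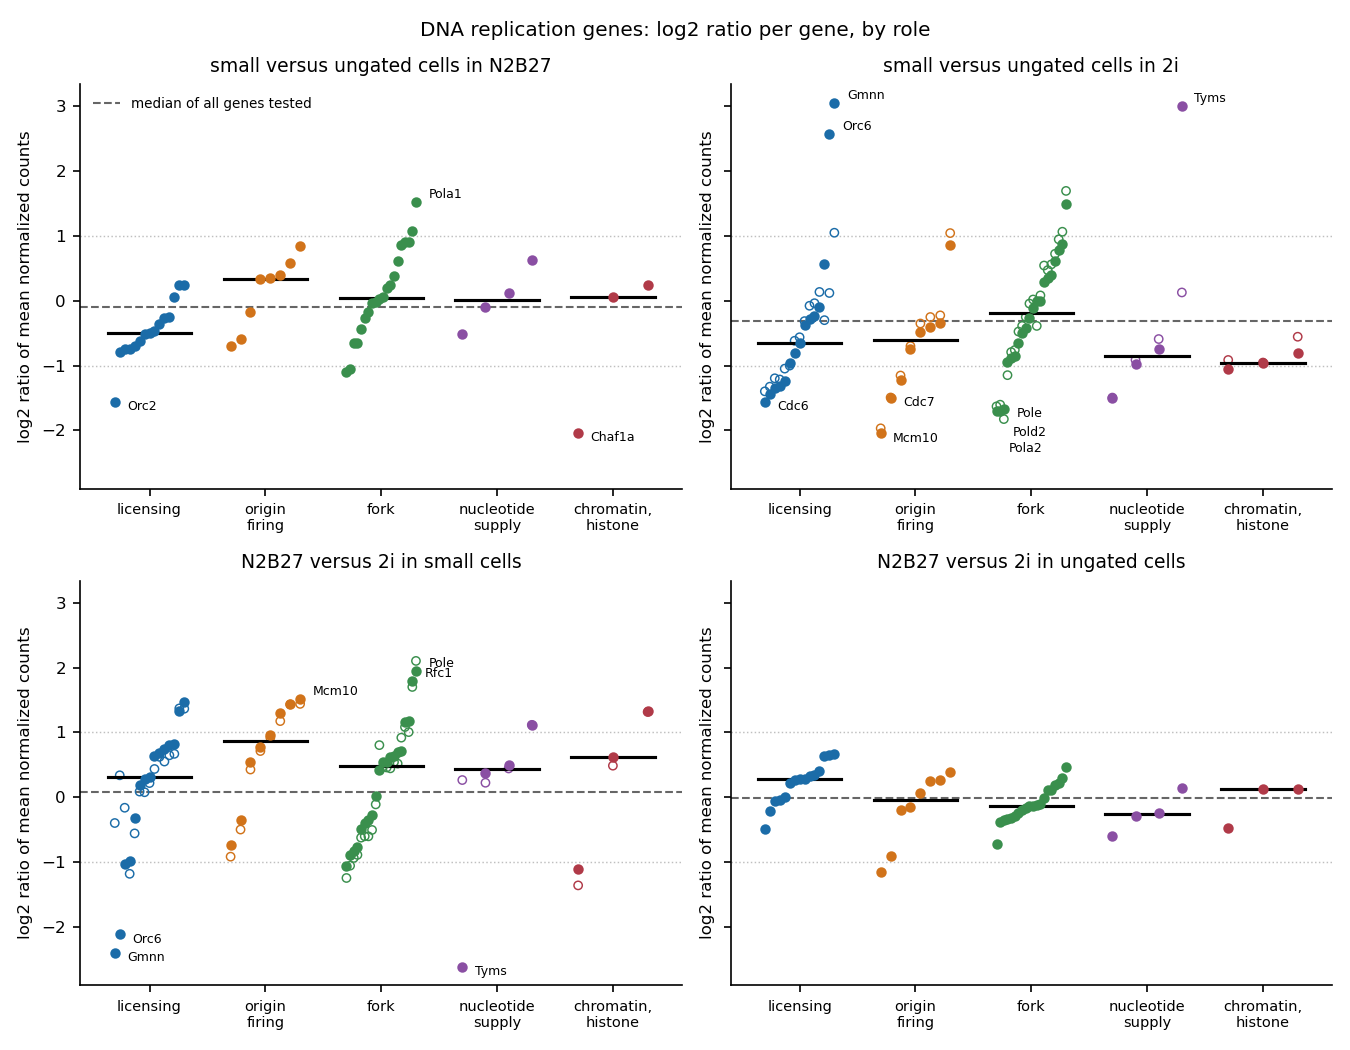
Log2 ratio of mean normalized counts per gene (vertical axis) by role (horizontal axis) in the 4 comparisons; filled points are genes, black bars the medians of the roles, dashed lines the medians of all genes tested, dotted lines 2-fold, and open points the values without the 2 cells of 2i small that stand apart. In ungated cells the 50 genes lie between −1.15 and 0.67, and Gmnn, Orc6 and Tyms stand out only where 2i small is compared.

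Among the licensing genes, the subunits of the Mcm ring were abundant in every group and had lower means in small cells, except Mcm6 in N2B27 and Mcm2 in 2i and, under poscounts size factors, also Mcm2 in N2B27 (0.12) and Mcm5 (0.81), Mcm6 (0.34) and Mcm7 (0.13) in 2i. Mcm5 (chromosome 8, 75109569 to 75128439) had a median of 1763 normalized counts in N2B27 ungated, over a range of 71.7 to 3153 in 21 cells, and of 877 in N2B27 small, over 3.41 to 2457 in 20 cells. The ranges overlap, and the log2 ratio of the means was −0.75. In 2i, Mcm5 had a median of 1316 in small cells (22.6 to 2823) and of 1241 in ungated cells (161 to 2506), a log2 ratio of −0.10, or 0.03 with CPM, 0.26 with scran size factors and 0.14 without the cells that stand apart. Mcm5 was thus lower in small cells in N2B27 and not past 2-fold in either medium.

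Mcm3 (chromosome 1, 20802968 to 20820312) had medians of 590 in 2i small, 1338 in 2i ungated, 878 in N2B27 small and 1329 in N2B27 ungated. The lowest ungated cells had 526 and 560, while single small cells reached down to 1.48 and 2.44. The log2 ratio of small over ungated cells was −1.24 in 2i and −0.51 in N2B27. Mcm4 (chromosome 16, 15623897 to 15637400) also had lower medians in small cells, at 92.4, 470, 339 and 719 in 2i small and ungated and in N2B27 small and ungated, with log2 ratios of −1.31 in 2i and −0.51 in N2B27. Between the media Mcm4 had the highest ratio of the licensing genes in small cells, 1.46, with Orc4 next at 1.32 and, without the cells that stand apart, level with it at 1.37 for both. Mcm7 (chromosome 5, 138164583 to 138172422) was at medians of 464, 1318, 1419 and 1582, with log2 ratios of −0.81 and −0.46. Its median in N2B27 small lay above that of 2i ungated, unlike the medians of Mcm3 and Mcm4.

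Mcm6 (chromosome 1, 128331590 to 128359664) differed least between the groups, with means of 1001, 1219, 1217 and 1168 normalized counts in 2i small and ungated and in N2B27 small and ungated and log2 ratios between −0.28 and 0.28 in all 4 comparisons. Mcm2 (chromosome 6, 88883474 to 88898780) had medians of 1115, 1493, 791 and 1162 in the same order. Its mean in 2i small was 2246, of which 1 cell gave 53.0%, and 1226 without the cells that stand apart. The log2 ratio of small over ungated cells in 2i was accordingly 0.57 with those cells and −0.30 without them.

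Cdc6, Cdt1 and Orc1, which act before the ring is loaded, had lower means in small cells of both media under all 4 scalings tried, with large spreads. Cdc6, the ATPase that works with ORC, had a median of 333 in 2i ungated and 236 in N2B27 ungated, but of 3.58 in 2i small and 3.11 in N2B27 small. Its highest cells reached 1610, 1788, 559 and 1121, so the groups overlap widely, and the log2 ratio of the means was −1.56 in 2i, the lowest of the licensing genes there, and −0.70 in N2B27. In N2B27 small, Cdc6 was detected in 18 of 20 cells, many of them at a few counts. Cdt1, the loading factor, had medians of 120, 591, 376 and 797 in 2i small and ungated and in N2B27 small and ungated. Its log2 ratios were −1.34 in 2i and −0.79 in N2B27, the lowest of the licensing genes in N2B27 after Orc2.

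Of the ORC genes, Orc1, the subunit with the strongest cell cycle control in somatic cells, was low everywhere, at medians of 9.92, 111, 4.88 and 26.7. Its log2 ratios were −1.43 in 2i and −0.74 in N2B27, and it was the lowest licensing gene in ungated N2B27 relative to 2i, at −0.50. Orc2 had a median of 5.73 in N2B27 small over a range of 0 to 671, against 212 in N2B27 ungated over 1.01 to 710, a log2 ratio of −1.56. In 2i the ratio of Orc2 was −0.23, or 0.61 under poscounts. Orc3 had the highest ratio of the licensing genes between the media in ungated cells, 0.67, though Mcm4 was higher with CPM and scran. Orc4 and Orc5 had log2 ratios of −0.96 and −0.65 between gates in 2i and of −0.27 and −0.62 in N2B27.

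The higher means of Gmnn, Orc6 and Tyms in 2i small rested largely on 1 cell. Gmnn, the inhibitor of licensing (chromosome 13, 24751845 to 24761923), had a mean of 3998 normalized counts in 2i small and a median of 546, and the cell with the spike-in share of 40.9% alone stood at 37430, or 78.0% of the sum of the group, from 4968 reads. Without it the log2 ratio to 2i ungated was 0.99 in place of 3.05. Orc6 (chromosome 8, 85299632 to 85308278) stood at 24614 in that cell, against at most 983 in the other 11, and its ratio without the cell was 0.14 in place of 2.57. Tyms (chromosome 5, 30058202 to 30073617) stood at 62134 from 8247 reads, 87.5% of the sum, and its ratio without the cell was 0.13 in place of 3.01. The cell held the highest value of 2i small for 5 of the 50 genes, which are these 3, Mcm2 and Pcna, and it had no count for 16. Over the same groups, medians of Gmnn were 453 in 2i ungated, 555 in N2B27 small and 618 in N2B27 ungated, and its log2 ratio between gates in N2B27 was 0.24, as was that of Orc6. These were the highest of the licensing genes in that comparison.

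Of the origin firing genes, Cdc45, which joins the ring to form the active helicase, had medians of 302, 515, 402 and 369 in 2i small and ungated and in N2B27 small and ungated. Its mean in N2B27 small was 892, of which 1 cell at 6268 gave 35.1%, and the log2 ratios were 0.58 between gates in N2B27 and −0.48 in 2i, the latter 0.30 under poscounts. Mcm10, a scaffold for firing, was the lowest of this role between gates in 2i. It had a median of 2.64 over 0 to 340 in 2i small and of 284 over 49.5 to 583 in 2i ungated, a log2 ratio of −2.05. Of the 12 cells of 2i small 10 had a count of Mcm10, as had all 22 of 2i ungated. In N2B27 the ratio was −0.59, so that Mcm10 was also the gene of this role with the highest ratio of N2B27 over 2i in small cells, 1.52.

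The kinase Cdc7 and its activator Dbf4 parted between gates in N2B27, but both were lower in small cells in 2i. Cdc7 had the highest ratio between gates of this role in N2B27, 0.84, though Cdc45 was higher with scran, and a ratio of −1.50 in 2i, and it had a count in 13 of 20 cells of N2B27 small and 13 of 21 of N2B27 ungated. Dbf4 had the lowest ratio of the role in N2B27, −0.70, except under scran and poscounts, where Mcm10 was lower, and a ratio of −1.22 in 2i. Of the GINS genes, Gins3 had the highest ratio of the role in 2i (0.86) and the lowest between the media in small cells (−0.74), and 84.5% of its sum in N2B27 small came from 1 cell. Gins2 was the only one of the 50 genes past 2-fold between the media in ungated cells, with medians of 195 in 2i and 20.8 in N2B27. Gins1 had the highest ratio of the role there, 0.39, and Gins4 had ratios from −0.34 to 0.54 in the 4 comparisons.

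Among the fork genes the clamp Pcna (chromosome 2, 132249162 to 132253314) was among the steadiest between gates. It had medians of 501, 641, 794 and 700 normalized counts in 2i small and ungated and in N2B27 small and ungated, and every kept cell had a count. The lowest cells stood at 196, 53.1, 153 and 208. The log2 ratios between gates were −0.01 in 2i, or −0.39 without the cells that stand apart, and 0.20 in N2B27. Under poscounts they were 0.94 in 2i and 0.73 in N2B27. Between the media the ratio was 0.42 in small cells, or 0.80 without the cells that stand apart, against a fork median of 0.45 without them.

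Of the polymerase alpha and primase genes, which start each new strand, Pola1, the catalytic subunit, had the highest ratio between gates of all 50 genes in N2B27. Its median was 170 over 0.725 to 2372 in N2B27 small and 70.2 over 0 to 627 in N2B27 ungated, a log2 ratio of 1.52, from 8950 reads (95% interval 8766 to 9137) against 3148 (3039 to 3260). Its partner Pola2 had a ratio of −0.43 there and, at −1.70, one of the lowest of the fork genes between gates in 2i beside Pold2 (−1.69) and Pole (−1.67), with medians of 42.7 in small and 368 in ungated cells. Pole was the lowest of these, at −1.83, once the cells that stand apart were left out, with Pola2 at −1.63. Pola2 also had the lowest ratio of the fork genes between the media in ungated cells, −0.73. Prim2, the large primase subunit, was at a median of 4.02 in N2B27 small and 251 in N2B27 ungated, with a log2 ratio of −1.11, while Prim1, the small subunit, had a ratio of 0.25. Subunits of 1 complex thus lay on opposite sides of 0.

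The polymerases that extend the strands were split in the same way. Pold2, of polymerase delta, was lower past 2-fold between gates in both media (−1.69 in 2i, −1.05 in N2B27), whereas Pold1 had ratios of 0.29 and 0.06. In N2B27, Pold2 fell short of 2-fold with CPM (−0.99), scran (−0.96) and poscounts (−0.62). Pole, of polymerase epsilon, had a mean of 24.3 normalized counts in 2i small, where 5 of 12 cells had a count, and of 96.6 in N2B27 small, the highest ratio between the media in small cells, 1.95. Its partner Pole2 had the lowest fork ratio in that comparison, −1.06, except with scran and poscounts, where Rfc3 was lower, and the highest between the media in ungated cells, 0.47. Of the clamp loader genes Rfc1 had ratios of 1.07 in N2B27 and −0.85 in 2i, with 38.8% of its sum in N2B27 small in 1 cell, and Rfc4 had 0.91 and 1.49, the latter the highest fork ratio in 2i. Rfc5 was at −0.04 and −0.88. The DNA ligase Lig1 stood at 0.90 and −0.65, and the single-strand binding genes Rpa1, Rpa2 and Rpa3 at −0.65, −0.26 and 0.86 in N2B27 and at −0.27, −0.11 and −0.00 in 2i.

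Of the nucleotide supply genes, Rrm2, the cell-cycle controlled subunit of ribonucleotide reductase (chromosome 12, 24708241 to 24714146), had medians of 573 in 2i small, 1356 in 2i ungated, 1178 in N2B27 small and 1136 in N2B27 ungated. The median in 2i small was the lowest, the other 3 lay close together, and the log2 ratios were −1.50 between gates in 2i and −0.09 in N2B27. Over the same cells the partner subunit Rrm1 had medians of 232, 497, 312 and 634, with ratios of −0.75 and −0.51, the latter the lowest of this role. Thymidine kinase Tk1 had medians of 5.65, 171, 4.08 and 109, but means of 99.3, 196, 141 and 129, and log2 ratios of −0.97 in 2i and 0.13 in N2B27. Tyms, which makes thymidylate, had medians of 765, 741, 723 and 620, and a ratio of 0.63 between gates in N2B27. Ungated cells in N2B27 had less Tk1 (−0.60), Rrm2 (−0.29) and Tyms (−0.24) than in 2i, of which Rrm2 (0.13) and Tyms (0.22) turned higher under poscounts, and Rrm1 was at 0.14.

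Slbp, which binds the stem loop of replication-dependent histone transcripts (chromosome 5, 33634952 to 33652574), had medians of 323, 495, 739 and 585 in 2i small and ungated and in N2B27 small and ungated. Its log2 ratio between gates was −0.97 in 2i and 0.24 in N2B27, and between the media in small cells 1.33, the highest of this role. The 2 chromatin assembly genes differed in N2B27, where the median of Chaf1a was 0 when small and 73.8 when ungated (−2.04) and Chaf1b had a ratio of 0.05. In 2i they stood at −0.80 and −1.05. Between the media in ungated cells Chaf1b was at −0.48 and Chaf1a at 0.12.

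Summed over the 50 genes, the level per cell differed little between the groups. The median summed CPM was 8457 in 2i small (6396 to 12035), 9925 in 2i ungated, 9624 in N2B27 small (5200 to 19439) and 9888 in N2B27 ungated. The licensing genes alone were at medians of 3346, 4246, 4020 and 4560, and Mcm2 to Mcm7 at 1920, 2872, 2874 and 3343. Fork genes were at 3086, 3136, 3405 and 3112, nucleotide supply at 1050, 1201, 1107 and 945, and origin firing at 700, 852, 929 and 804. For the G2/M and mitosis list the medians were 1961, 4058, 2512 and 4583, so the medians of this list differed more between the gates than those of the fork genes did. All medians of 2i small here include the 2 cells that stand apart. On the G2/M list the cell with the most genes was at 3179 and the one richest in spike-ins at 2105, both above that median. For fork genes they were at 3180 and 243.

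**Figure D3:**
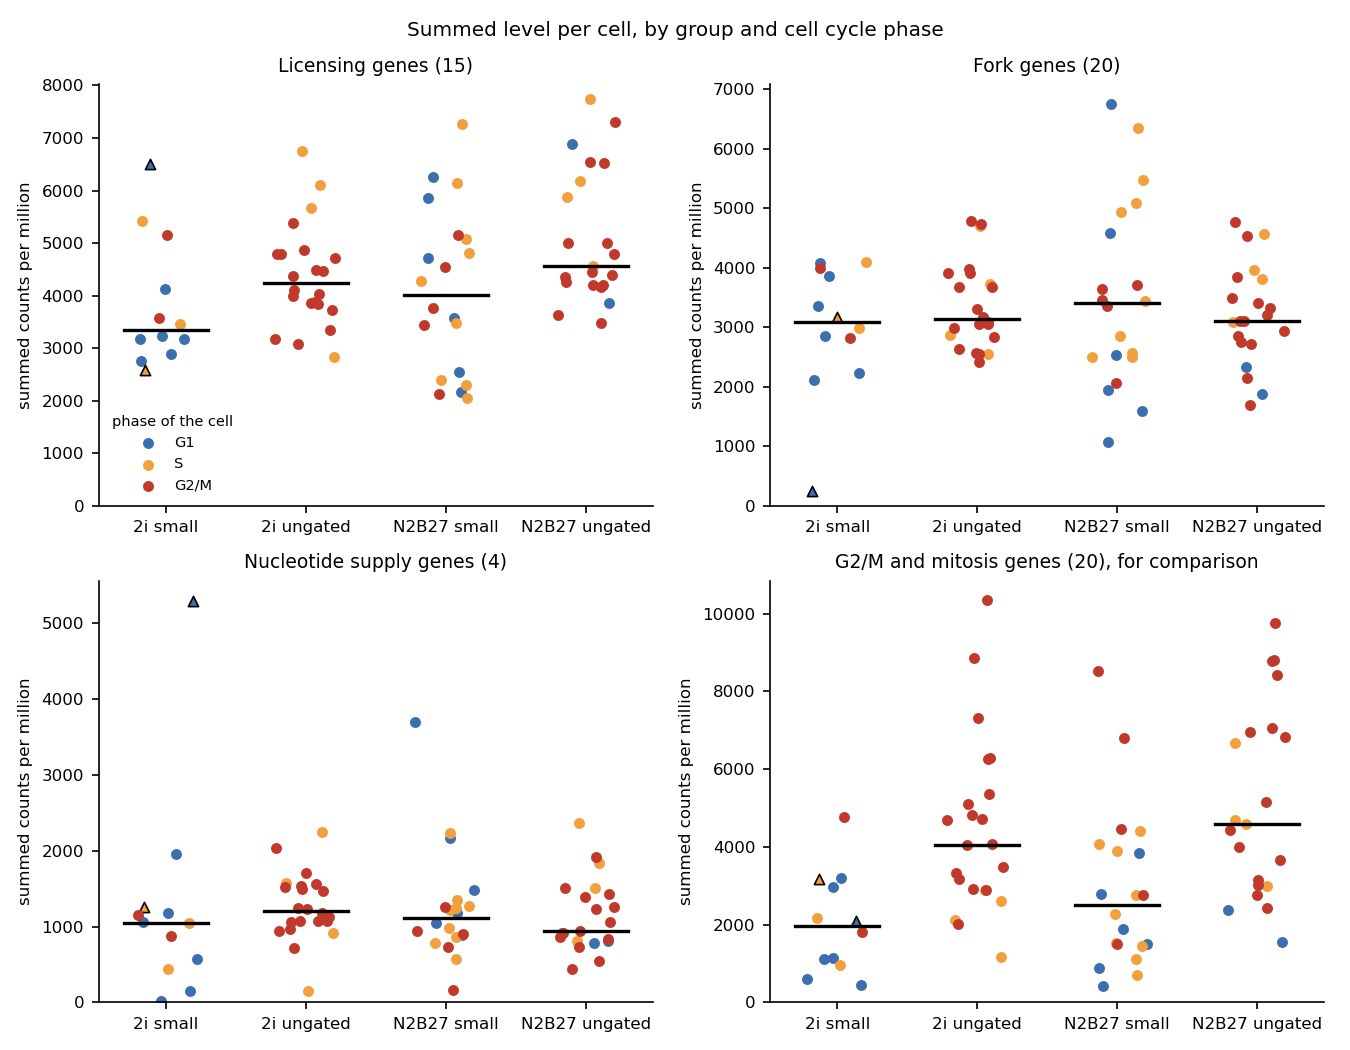
Summed CPM per cell (vertical axis) for licensing, fork and nucleotide supply genes and for 20 G2/M and mitosis genes, by group (horizontal axis); points are cells coloured by phase, bars are medians over all kept cells, and triangles mark the 2 cells of 2i small that stand apart, which the medians include. The G2/M list has medians of 1961 (2i) and 2512 (N2B27) in small cells and 4058 and 4583 when ungated, while those of the fork genes lie between 3086 and 3405.

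Small cells had a count for fewer of the replication genes. With every kept cell thinned to 1300000 counts, the median number of the 50 genes with a count was 39 in 2i small (31 to 50), 49 in 2i ungated (45 to 50), 40 in N2B27 small (32 to 49) and 45 in N2B27 ungated (38 to 50). Without thinning the medians were 42.5, 49, 44.5 and 47. The number of all genes detected after thinning moved with it, at medians of 6581, 8780.5, 6390 and 7458, and its part in the result was not tested. Of the 50 genes, 36 had a count in every cell of 2i ungated, against 21 in 2i small, 20 in N2B27 small and 30 in N2B27 ungated. The cell with the most counts of a gene gave a median of 32.6% of that gene's sum in 2i small and 22.9% in N2B27 small, against 10.7% and 13.5% in the ungated groups. Relative to the ERCC spike-ins, the 50 genes had medians of 0.218 counts per spike-in count in 2i small, 0.894 in 2i ungated, 0.390 in N2B27 small and 0.840 in N2B27 ungated. Less RNA per cell and fewer transcripts of these genes cannot be told apart in that ratio.

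**Figure D4:**
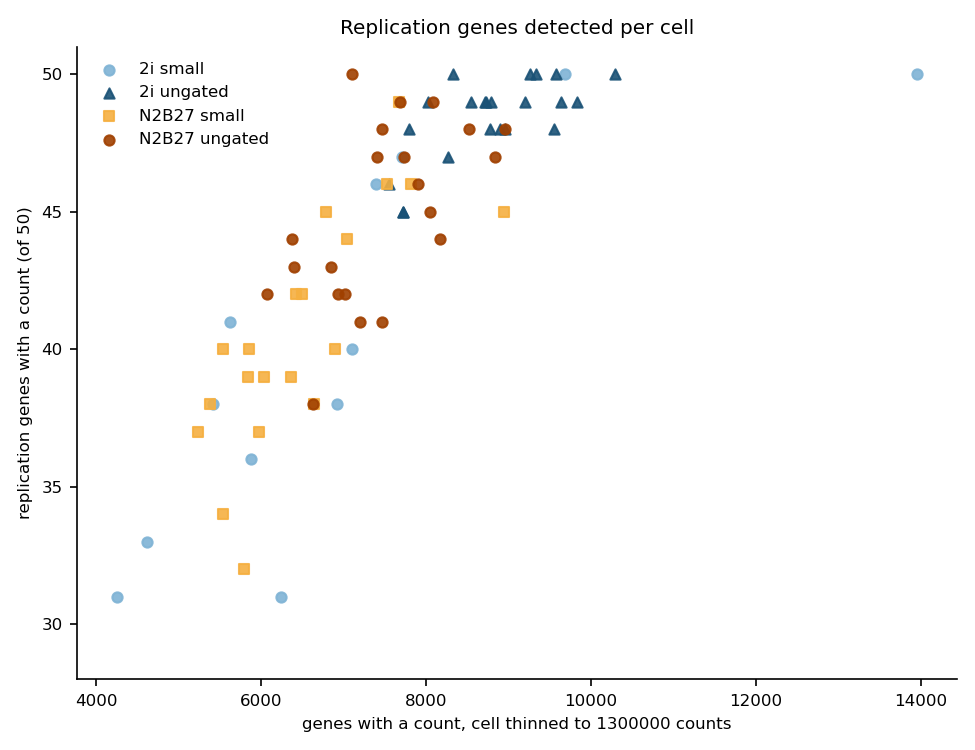
Replication genes with a count (of 50, vertical axis) against all genes with a count (horizontal axis) in each kept cell after thinning to 1300000 counts; points are cells, and colours and shapes are groups. The medians are 39 and 40 genes in 2i small and N2B27 small and 49 and 45 in 2i ungated and N2B27 ungated, and cells with fewer genes in all had fewer of the 50.

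The count past 2-fold also depended on the log scale. Of the 50 genes, 12 changed the side of 0 between gates in N2B27 across the 4 scalings (median of ratios, CPM, scran and poscounts), as did 15 in 2i, 21 between the media in ungated cells and 1 in small cells. With means of log2 values in place of the log2 of means, 27 of the 50 genes were lower past 2-fold in small N2B27 cells and 38 in small 2i cells. These are larger shares than the 42.5% and 60.3% of all genes that were lower past 2-fold. On that scale the median of the 50 genes minus that of all genes was −0.33 in N2B27 and −0.84 in 2i.

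Across single cells, the subunits of the Mcm ring varied together loosely, though more than pairs of licensing or fork genes in general. The median Spearman correlation over the 15 pairs of Mcm2 to Mcm7 was 0.50 in 10 cells of 2i small, 0.28 in 22 of 2i ungated, 0.21 in 20 of N2B27 small and 0.23 in 21 of N2B27 ungated. Over all 105 licensing pairs, which include these, it was 0.03, 0.09, 0.14 and 0.05, and over 190 fork pairs 0.05, 0.06, 0.10 and 0.04. The 3 pairs of chromatin assembly and histone supply genes had higher medians than the ring in 2i small (0.61) and N2B27 ungated (0.24). The licensing sum and the fork sum had correlations of 0.28, 0.47, 0.48 and 0.47 in the same order. Pairs were taken on normalized counts and sums on CPM, which share a total within a cell. The cells of a group also share a library preparation, so all these correlations are given as a description. The licensing sum had a correlation with the G2/M and mitosis sum of −0.44 in 2i ungated and −0.24 in N2B27 ungated, and of 0.06 in N2B27 small.

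Between S and G2/M cells, the summed level of licensing genes was higher in S in both ungated groups, though gene by gene not in 2i. In 2i ungated the median was 5886 CPM in 4 S cells (2825 to 6748) and 4075 in 18 G2/M cells (3078 to 5392), and in N2B27 ungated it was 6036 in 4 S cells (4560 to 7735) and 4387 in 15 G2/M cells (3476 to 7305). The ranges overlap in both media, and the lowest S cell of 2i lay below every G2/M cell. Fork genes were at 3306 against 3136 in 2i and 3893 against 3112 in N2B27. Nucleotide supply was at 1241 against 1201 in 2i and 1668 against 945 in N2B27. Among small N2B27 cells the licensing sum was 4271 in 9 S cells, 4153 in 6 G1 cells and 3769 in 5 G2/M cells, and the fork sum was 3443, 2239 and 3461. A sum weighs abundant genes most. Per gene, licensing genes had a median log2 ratio of S over G2/M of 0.04 in ungated 2i, against 0.09 for all genes. There 8 of the 15 were higher in S and 7 lower. In ungated N2B27 the median was 0.25 against −0.12, with 9 higher and 6 lower.

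Gene by gene, 23 of the 50 were higher in S than in G2/M in both media, or 46% of them, against 22.6% of the 7388 genes tested in both. Of the 50, 13 were lower in S in both, which is 26% of them against 27.4% of all genes. No gene of the 50 was at least 2-fold higher in S in both media, as 2.23% of all genes were. The ungated 2i and N2B27 samples share no cells, but both have only 4 cells in S. In 2i, 25 of the 50 were higher in S, with a median log2 ratio of −0.00 against 0.09 for all genes. Past 2-fold 4 were higher, against 15.7% of all genes, and 2 lower, against 13.6%. In N2B27, 35 of the 50 were higher, with a median of 0.25 against −0.12. Past 2-fold 3 were higher, against 13.1%, and 4 lower, against 24.0%.

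The genes with a log2 ratio above 0.7 in both media were Mcm5, at log2 ratios of 0.91 in 2i and 0.98 in N2B27, Slbp, at 1.04 and 0.76, and Cdc7, at 1.16 and 0.84. These 3 were chosen after their values were seen. Mcm6 had ratios of 1.08 and 0.29, Orc1 of 1.37 and 0.25, Mcm2 of 0.70 and 0.23, and Mcm3 of 0.45 and 0.29. Mcm4 and Mcm7 were at −0.18 and −0.07 in 2i and at −0.32 and −0.01 in N2B27, so 4 of the 6 ring subunits were higher in S in both media and the other 2 were not. Cdc6 was at 0.04 and 0.96, Cdt1 at −0.03 and −0.06, and Gmnn at −0.26 and −0.69. All 4 nucleotide supply genes were higher in S in N2B27 (Tk1 0.72, Rrm2 0.58, Rrm1 0.49, Tyms 0.44), and 2 of the 4 were in 2i (Tk1 0.25, Rrm2 0.17). Pcna was at −0.27 and 0.31 and Cdc45 at −0.32 and 0.66.

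**Figure D5:**
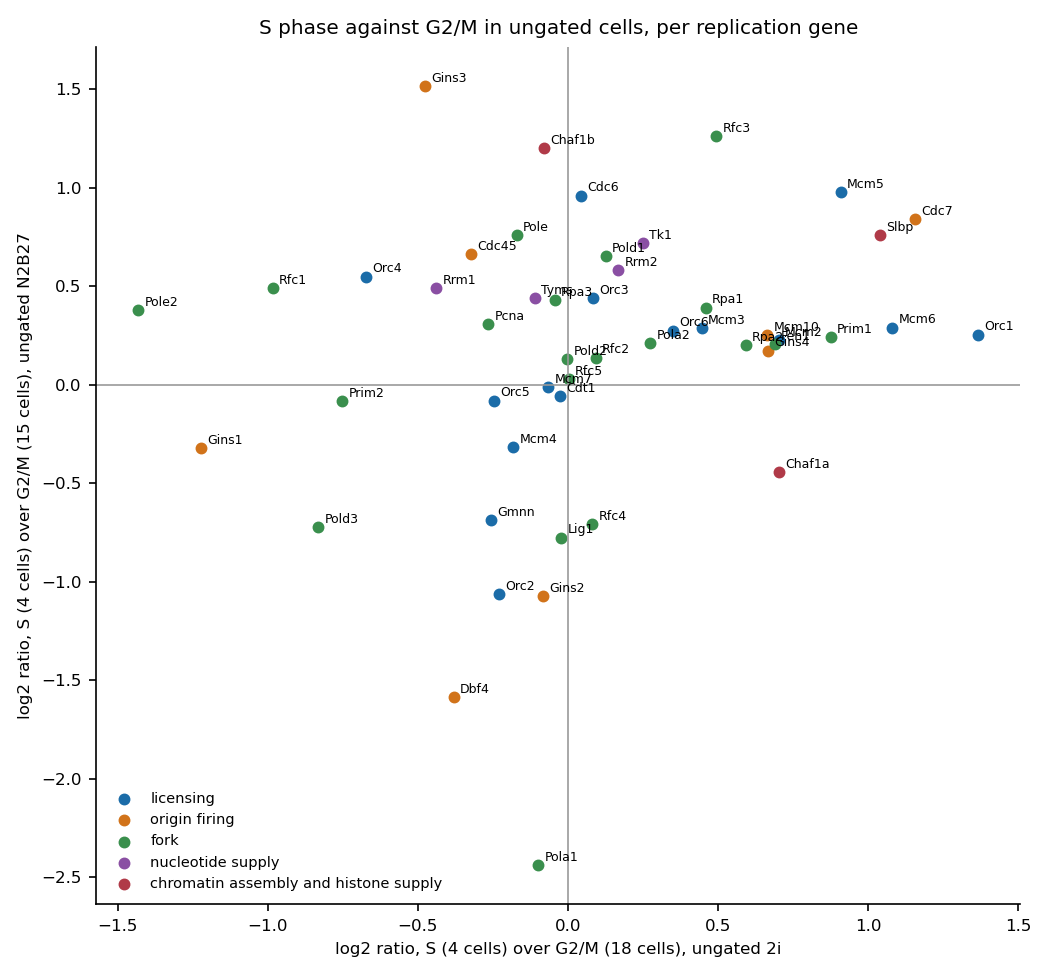
Log2 ratio of S over G2/M cells per replication gene in ungated 2i (horizontal axis, 4 against 18 cells) and ungated N2B27 (vertical axis, 4 against 15 cells); points are genes coloured by role. The upper right corner holds 23 of the 50 genes, among them Mcm5, Slbp and Cdc7, and the lower left holds 13.

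In small N2B27 cells S was compared with G1, the other transition of interest, in 9 and 6 cells. Of the 50 genes 26 were higher in S, with a median of 0.10 against 0.01 for all genes. Past 2-fold, 10 were higher, against 28.6% of all genes, and 7 lower, against 24.3%. Genes with an E2F match in the promoter had a median of 0.02 (15 genes) and those without one 0.18 (27 genes). Between S and G2/M the 2 sets had medians of 0.04 and 0.08 in ungated 2i and of 0.29 and 0.27 in ungated N2B27, and between small and ungated cells of −0.38 and −0.75 in 2i and −0.36 and −0.04 in N2B27. The set with a match was thus not the higher one throughout.

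A further 58 genes of replication, nucleotide metabolism and G1/S control that are not among the 50 were split in N2B27, where 12 were higher and 6 lower past 2-fold between gates, with a median of 0.09, against 12.8% and 16.4% of all genes tested. In 2i, 8 were higher and 12 lower, against 17.6% and 26.0%, with a median of −0.32, or −0.24 without the cells that stand apart. These counts take all 58 genes, whereas the shares take only genes with a mean of at least 20. That mean was reached by 53 of the 58 in N2B27 and 50 in 2i. Of the genes named below, E2f2 in N2B27 and Recql4 and Mcm9 in 2i fell short of it. The highest in N2B27 were Rb1, the pocket protein that restrains E2F, at 5.14 and E2f2 at 2.89, but Rb1 had counts in only 2 of 20 small cells and E2f2 in 3. The lowest were Timeless, of the fork protection complex, at −2.67, with a mean of 22.4 in small against 147 in ungated cells, and Ccnd1, cyclin D1, at −1.77, with 88.3 against 303. In 2i the highest was Topbp1, a firing factor, at 4.91, of whose sum in 2i small 94.9% came from 1 cell and whose ratio without the cells that stand apart was 0.79. The next was Pold4 at 4.27, with 90.9% of its sum in 1 cell, and 4.52 without them. The lowest were Recql4 at −4.56 and Mcm9 at −3.69, which had counts in 1 and 3 of the 12 small cells and in 9 of the 22 ungated cells each, and which stood at −5.13 and −4.55 without the cells that stand apart.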

How the data were processed

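Reads of 96 single cells from 4 samples were trimmed with Trim Galore 0.4.4, aligned to GRCm38 with GSNAP 2015-09-29 and counted on Ensembl genes with HTSeq by the authors, who deposited raw counts of reads per gene, not normalized, without molecular identifiers. The columns were tied to samples through the deposited list of sequencing runs. Of the 46078 gene rows, 45143 matched the GENCODE M21 annotation. Rows that name no gene or spike-in held 23.8% of counts and ERCC spike-ins 3.85%, and both stayed out of totals.

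Cells were filtered per plate at 3 median absolute deviations with scater 1.30.1, which on the 2i plate asked for 307960 counts, 4435 genes and at most 5.16% mitochondrial counts, and on the N2B27 plate for 1250614, 5316 and 4.67%. Doublets were not called. Counts were divided by DESeq2 1.42.0 size factors, from 1227 genes with a count in every kept cell. The log2 ratio of group means used a pseudocount of 1, genes with a mean of at least 20 formed the background, and no p-value was computed, with 1 sample a group. Phases came from cyclone in scran 1.30.0, with 26457 of 28492 marker pairs, since 28 of its 667 marker genes are among the 50. Intervals are exact Poisson intervals on summed reads, taken as independent although no molecular identifiers were used. The calculation of the ratios was checked on counts simulated for N2B27 cells only. That check held no single dominating cells and does not show how such cells affect a ratio.

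The genes named are Mcm2 to Mcm7, Orc1, Cdc6, Cdt1, Gmnn, Cdc45, Pcna, Slbp and the nucleotide supply genes, those with the highest and lowest ratio of each role in each comparison, and the 2 highest and 2 lowest of 58 other genes between gates; further ones are given for their complexes. The 50 genes and all lists were chosen with earlier results of these data known. Alternatives covered normalization, filters on cells and genes, pooling, the log scale, thinning, pseudocounts, phases and single cells of 2i small. Python 3.11.15 and R 4.3.3 were used.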

Additional observations from a re-analysis of the deposited data

How the results depend on the processing

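No paired analysis was possible because each group is 1 sample. The median of the 50 genes minus that of all genes kept within an interval from the order statistics of the 50 genes under all alternatives but 2. That interval is over genes, unlike those on reads. It takes the genes as independent and leaves out the spread between cells and samples, so keeping within it is a description only. Where it kept within, the median of the 50 genes minus that of all genes ran from −0.15 to 0.07 between gates in N2B27 and from −0.42 to 0.03 in 2i. In 2i it was above 0 only in S cells, where 1 of the 3 small cells stands apart by its detected genes. It ran from 0.22 to 0.56 between the media in small cells and from −0.08 to 0.02 in ungated cells. Its direction thus held throughout only between the media in small cells. With means of log2 values it was −0.33 between gates in N2B27, −0.84 between gates in 2i and 0.18 between the media in ungated cells, and with cells in S only, 3 to 9 a group, it was 0.29 in the last. The count of genes higher in S in both media was 29 with all marker pairs and 25 after thinning.

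The counts past 2-fold moved more, and so did the share of all genes. Under poscounts size factors, which shift the median of all genes by 0.15 to 0.83, 2 genes were lower and 10 higher between gates in N2B27 (all genes 9.72% and 26.3%), 7 and 13 in 2i (12.3% and 37.6%), 17 higher between the media in small cells (29.7%), and 0 lower and 3 higher in ungated cells (2.96% and 16.8%). Under scran size factors 2 were lower and 5 higher between gates in N2B27 (14.7% and 18.4%). With no filter on cells, 0 were higher between gates in N2B27 (9.87%), and 4 lower and 3 higher between the media in ungated cells (14.0% and 16.4%). CPM left 2 lower between the media in small cells (14.5%), and pooled counts 1 (14.2%), with 2 lower in ungated cells (9.93%). Means of log2 values gave 27 lower between gates in N2B27 (42.5%), 38 lower and 0 higher in 2i (60.3% and 4.16%), and 15 lower between the media in ungated cells (37.3%). In S cells only, 10 were lower and 6 higher between gates in N2B27 (22.6% and 24.0%), 1 higher in 2i (10.9%), 17 higher between the media in small cells (37.3%), and 4 lower and 4 higher in ungated cells (30.1% and 16.7%). When the cell of 2i small richest in spike-ins was left out, 2 were higher between gates in 2i (13.3%).

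Single genes past 2-fold changed direction in these cases. Between the media in small cells these were Lig1 with no filter on cells (−3.39), Mcm2 with pooled counts (0.12) and in S cells (0.98), Orc6 (0.31) and Tyms (0.26) without that cell, the same genes without both cells that stand apart (0.34 and 0.26), an alternative chosen after seeing the data, and Gmnn (0.67), Cdc45 (−0.63) and Chaf1a (3.33) in S cells. Between gates they were Rfc1 in N2B27 with means of log2 values (−0.38) and Rfc4 in 2i in S cells (−0.79). The cause was tested only for the cell that was left out.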
